A study of Ovis aries with 18 samples.

Results

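Oxidative phosphorylation makes ATP at the inner membrane of the mitochondrion. Complex I oxidises NADH and complex II oxidises succinate, their electrons pass through complex III to complex IV, which reduces oxygen to water, and complex V makes ATP with the proton gradient that complexes I, III and IV build up. Most of the subunits are encoded in the nucleus, and in mammals the oxygen use of the embryo is known to be higher at the blastocyst stage, when the trophectoderm, the outer layer that gives rise to the placenta, pumps ions to fill the blastocoel. The genes described here had a symbol of the NDUFA, NDUFB, NDUFC, NDUFS or NDUFV series with a number, were SDHA, SDHB, SDHC or SDHD, or had a symbol that began with UQCR, with COX and a digit from 4 to 8, or with ATP5. This rule found 52 of the 20092 genes in the count table: 31 of complex I, 4 of complex II, 3 of complex IV and 14 of complex V. NDUFA4, named after complex I, is a subunit of complex IV and was placed there with its relative NDUFA4L2. Subunits of complex III and subunits of complex IV other than COX5A and these were not analysed here.

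RNA sequencing was performed on 12 pools of 5 sheep blastocysts, a stage with both inner cell mass and trophectoderm, flushed 8 days after the rams had joined the ewes. Of these, 6 pools came from control sires on a basal diet (Ram410, Ram423 and Ram444, with 2 pools each) and 6 from sires fed the same diet with 1.5 g of rumen-protected methionine as a top-dress (Ram424 with 4 pools, Ram498 and Ram511 with 1 each). All rams were of the Polypay breed, and they were 88 days old on average at the start of the 77 days of feeding. The counts of a pool summed to 1017847 at the lowest, 1524374.5 at the median and 2398589 at the highest. Levels are given as CPM, counts scaled to a common library size after normalization by the trimmed mean of M-values (TMM). They also scale with the length of a transcript, so that genes were ranked by CPM only to choose those named.

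A control pool, Embryo444_2, and a methionine pool, Embryo511_1, stood apart from the other 10 pools over all tested genes. Across genes, which are not independent replicates, the Spearman correlation with each of the 10 was 0.526 to 0.622 for Embryo444_2 and 0.552 to 0.626 for Embryo511_1, while the 10 pools had 0.806 to 0.955 with each other. These 2 pools also had the lowest totals, 1173289 and 1017847 counts. The trophectoderm markers (10 of 15 analysed) summed to 379 CPM in Embryo444_2 and 290.5 CPM in Embryo511_1 against 5453 to 14850 CPM in the other pools, and their most abundant gene, the keratin KRT8, had 116 and 42.6 CPM against 3893 to 11862 CPM. Of the 9 tested, 7 in Embryo444_2 and 8 in Embryo511_1 were below each of the 10 pools (24.6% and 26.6% of all tested genes were, a share that also applies to the lists below), but ELF5 was within their range in both (29.0 and 66.4 CPM against 17.1 to 128 CPM) and EOMES was above it in Embryo444_2 (96.3 CPM against 24.1 to 67.9 CPM). The low sum of the epiblast markers (6 of 11; 59.5 and 85.3 CPM against 223 to 588 CPM) was that of the pluripotency factor POU5F1 (14.2 and 39.7 CPM against 132 to 521 CPM), whereas NANOG and TDGF1 were within the range of the 10 pools in both, and 1 and 2 of the 4 tested were below it. The hypoblast markers (8 of 9) summed to 478.5 and 526.4 CPM against 842 to 1652 CPM, led by GATA6 with 38.9 and 66.4 CPM against 249 to 801 CPM, with 3 of 6 tested below the 10 pools in each, while FOXA2 (39.6 and 13.9 CPM against 0.710 to 9.21 CPM), GATA4 in Embryo511_1 (94.2 CPM against 18.2 to 44.3 CPM) and PDGFRA in Embryo444_2 (166 CPM against 96.3 to 155 CPM) were above them. The trophectoderm factor ASCL2, the epiblast gene UTF1 and the hypoblast factor SOX17 were at 0 counts in Embryo511_1, but their levels were also under 9 CPM in every other pool. DAB2, a marker of the trophectoderm list, had 56.6 and 77.3 CPM in the 2 pools against 168 to 736 CPM and a log2 fold change with methionine of 1.26 (adjusted p of 0.585 by edgeR). Over the 9 tested markers of that list this value was above 0 for 6 and below 0 for 3, such as ELF5 (-0.61), with a median of 0.12.

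The summed markers of other cells were not below the range of the 10 pools, although single genes were, such as the oocyte gene ZAR1 in both pools (3.54 and 0 CPM against 4.96 to 19.6 CPM) and TNNC1 and AIF1 in Embryo444_2 (2.12 CPM against 8.49 to 22.0 CPM and 0.708 CPM against 1.13 to 22.1 CPM). Oocyte transcripts (6 of 10) summed to 113 CPM in Embryo444_2 and 737 CPM in Embryo511_1 against 99.8 to 158 CPM, led by the zona pellucida gene ZP2 with 35.4 and 205 CPM against 27.9 to 54.5 CPM, while ZP3 had 27.6 and 410 CPM against 9.21 to 26.8 CPM. Spermatid markers (7 of 9) summed to 97.0 and 1105 CPM against 30.4 to 70.1 CPM, and their leading gene, the transition protein TNP1, had 12.7 and 1008 CPM against 1.204 to 15.6 CPM. In Embryo444_2 the sum was mostly GAPDHS (68.0 CPM against 6.43 to 29.7 CPM), and TNP2 was at 0 in Embryo511_1. With methionine ZP2, ZP3 and TNP1 had log2 fold changes of 0.98, 2.36 and 4.54 (adjusted p of 0.607, 0.584 and 0.584 by edgeR), with their highest level in Embryo511_1. Blood markers (4 of 8) summed to 161 and 345 CPM against 74.2 to 148 CPM, with PTPRC at 121 and 254 CPM against 40.2 to 76.5 CPM. LCP1 was above the 10 pools in Embryo511_1 only (32.6 and 75.4 CPM against 23.2 to 47.5 CPM). CD74 was within their range in both (7.08 and 10.9 CPM against 5.90 to 21.1 CPM). Muscle markers (5 of 8) summed to 145 and 425 CPM against 90.0 to 207.5 CPM, led by MYH2, which was within range (85.0 and 123 CPM against 55.7 to 127.5 CPM), while in Embryo511_1 TNNC1 (134 CPM against 8.49 to 22.0 CPM), ACTA1 (115 CPM against 1.81 to 30.1 CPM) and TNNT3 (43.6 CPM against 2.14 to 27.8 CPM) were above it. The 1 cumulus marker analysed of 8, HAS2, had 106 and 35.7 CPM against 35.0 to 66.8 CPM. In Embryo444_2, 1 of 6 tested oocyte, 1 of 3 spermatid, 1 of 3 blood and 1 of 5 muscle genes were above each of the 10 pools. In Embryo511_1 these counts were 4, 3, 2 and 3. Of all tested genes, 22% and 24.9% were above, shares that also apply to the trophectoderm, epiblast and hypoblast lists. The part of the cell composition in the levels given below was not tested, and in pools of whole embryos fewer cells of a type and less RNA per cell cannot be told apart.

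The subunit genes as a set had their lowest levels in these same 2 pools and their highest in pools sired by Ram424. In the control pools, the summed level of the 52 genes was 6516 and 5055 CPM for Ram410, 6993 and 5993 CPM for Ram423, and 5011 CPM in Embryo444_1 and 927 CPM in Embryo444_2 for Ram444. In the methionine pools it was 11117, 10375, 9037 and 6982 CPM for the 4 pools of Ram424, 5838 CPM for Ram498 and 1704 CPM for Ram511. The pool of Ram498 thus lay between the control pools other than Embryo444_2, whereas 3 of the 4 pools of Ram424 lay above every other pool. The mean per sire was 5786 CPM for Ram410, 6493 CPM for Ram423 and 2969 CPM for Ram444 among the controls, and 9378 ± 1814 CPM (SD, n = 4 pools) for Ram424, 5838 CPM for Ram498 and 1704 CPM for Ram511 among the treated rams.

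The summed levels of the complexes did not move by the same proportion. Relative to the median of the other 10 pools, the summed level in Embryo444_2 was 28.8% for complex I, 9.71% for complex II, 9.29% for complex IV and 6.39% for complex V. In Embryo511_1 the same values were 39.2%, 18.8%, 22.4% and 20.5%. Complex I therefore made up 62.2% (95% Wilson interval 59.5 to 64.8%) of the summed level of the set in Embryo444_2 and 45.9% (43.5 to 48.3%) in Embryo511_1, against 22.5 to 37.3% in the other 10 pools. The share of complex V was 19.6% (17.6 to 21.9%) and 34.3% (32.1 to 36.5%) against 39.3 to 53.6%, with the highest shares in Embryo424_1 (52.9%, 52.3 to 53.5%) and Embryo424_2 (53.6%, 52.9 to 54.3%). These intervals cover counting error only. For comparison, in Embryo444_2 and Embryo511_1 the summed level of 72 cytosolic ribosomal protein genes was 6.61% and 31.8% of that median, and that of 37 proteasome subunit genes was 38.1% and 50.8%.

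**Figure D1:**
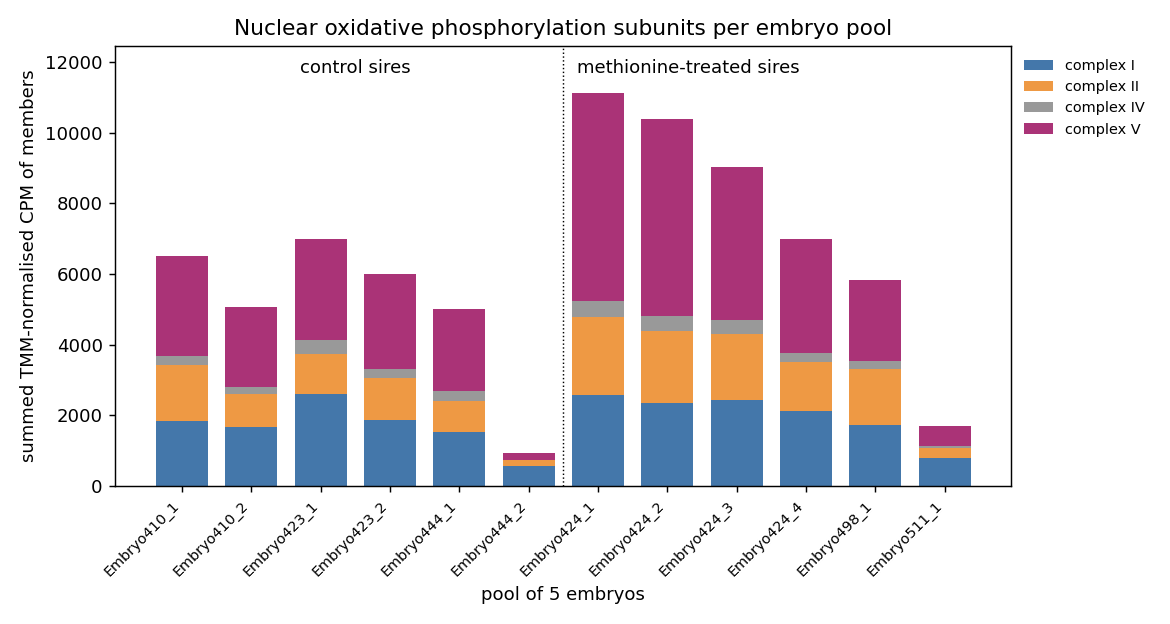
Summed TMM-normalised CPM of the members of complexes I, II, IV and V (stacked bars, vertical axis) in each of the 12 pools of 5 embryos (horizontal axis), control sires left of the dotted line. Embryo444_2 (927 CPM) and Embryo511_1 (1704 CPM) are lowest, and Embryo424_1 (11117 CPM) is highest, with the widest part of its bar from complex V.

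The filter on low counts, at least 15 counts in more than 3 pools, was passed by 50 of the 52 genes and by 16488 of all genes. The genes that failed it were NDUFA3, an accessory subunit of complex I with 0 to 9 counts per pool, and ATP5MC1_1, with 0 to 8 counts, whose symbol carries a suffix of unknown meaning. In Embryo444_2, 39 of the 50 tested members were below each of the 10 other pools, against 24.6% of all tested genes, and 2 were above each of them, against 22% of all. In Embryo511_1, 35 were below each of the 10, against 26.6%, and 2 above, against 24.9%. All 13 tested members of complex V were below the 10 pools in each of the 2, compared with 21 of 30 members of complex I in Embryo444_2 and 18 of 30 in Embryo511_1. Over all tested genes, levels outside the range of the 10 pools thus lay on either side in similar shares, while those of the subunit genes lay mainly below. This was not particular to them, since 68 and 63 of 72 ribosomal protein genes and 25 and 24 of 36 tested proteasome genes were also below the 10 pools in Embryo444_2 and Embryo511_1.

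To ask whether the diet of the sire was accompanied by another level of these genes in the embryos, pools of treated and control sires were compared with the quasi-likelihood test of edgeR in the fit of all tested genes. No member passed an FDR of 0.05, and neither did any other gene (0%). The lowest adjusted p among members was 0.596. At an unadjusted p under 0.05 there were 2 members, NDUFS1 and ATP5IF1, both higher with methionine, while 3.55% of all genes were higher and 7.92% differed in either direction at this threshold. The 2 of 50 members thus made up a share near that of all genes. The log2 fold change was above 0 for 38 of the 50 members and for 8325 of the 16488 genes, with a median of 0.39 over the members and 0.01 over all genes. The summed level was 5083 ± 2182 CPM in control and 7509 ± 3474 CPM in methionine pools (SD, n = 6 each). The log2 ratio of 0.56 was smaller than the spread between pools of a diet (SD of 1.055 on the log2 scale), and the groups overlapped. This SD includes the low sums of Embryo444_2 (927 CPM) and Embryo511_1 (1704 CPM). Without these pools, sums were 5011 to 6993 CPM for control and 5838 to 11117 CPM for methionine, which still overlapped. The log2 ratio was 0.15 as a mean over ram means, 0.345 without Embryo444_2, 0.77 without Embryo511_1 and 0.55 without both. The SD without both is not given here, so the ratio of 0.55 was not compared with its own spread.

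Without Embryo444_2 and Embryo511_1, the spread between pools was smaller and 16 of the 50 members had an unadjusted p under 0.05, all higher with methionine, against 5.74% of the genes tested in these 10 pools. This fit takes no account of the sire, and with the pools of each ram summed in the same 10 pools the count was 0, against 4.60% of all genes in either direction. The 16 were 7 of 30 members of complex I (NDUFS1, NDUFV1, NDUFV3, NDUFA9, NDUFA10, NDUFA11 and NDUFB5), 3 of 4 of complex II (SDHA, SDHB and SDHC), 0 of 3 of complex IV and 6 of 13 of complex V (ATP5F1A, ATP5F1B, ATP5F1C, ATP5PB, ATP5PF and ATP5IF1). None of them passed an FDR of 0.05 with edgeR (lowest adjusted p of 0.258), which 0.00619% of all genes, a single gene, did. The median log2 fold change over the members was 0.38, and over all genes it was -0.03. In these 10 pools 4 of the 5 treated pools were those of Ram424, and the other, Embryo498_1, had a summed level within the range of the control pools.

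The difference depended on the pools of Ram424. Without its 4 pools, 38 of 50 members had a log2 fold change below 0, the median was -0.38 against -0.04 over all genes, and the log2 ratio of the summed level was -0.43. The treated pools were then only Embryo498_1 (5838 CPM, within the controls) and Embryo511_1 (1704 CPM), so that values below 0 without Ram424, here and below, include the low level of Embryo511_1, and whether they hold without it was not tested. In the 10 pools, 14 of the 50 tested members were higher in all 4 pools of Ram424 than in each of the other 6, against 2.43% of all tested genes. The number lower in all 4 was 0, against 250 of the 16488 tested genes. The 14 that were higher were 8 of 13 members of complex V, 2 of 4 of complex II, 4 of 30 of complex I and 0 of 3 of complex IV. The trophectoderm markers DAB2 (454 to 736 CPM against at most 432 CPM) and GATA2 (76.2 to 86.1 CPM against at most 61.6 CPM), 2 of 9 tested, were also higher in all 4, while KRT8 was not. Between diets in the 10 pools, 6 of the 9 had a log2 fold change above 0 and 3 below 0, among them ELF5 (-1.06). Of the 6 hypoblast markers tested, 1 was lower in all 4, PDGFRA (96.35 to 124 CPM against at least 129.5 CPM). Whether the cell composition of the pools of Ram424 differed was not tested. Among the 12 pools, the highest level was in a pool of Ram424 for 30 of the 50 members, and in Embryo424_1 alone for 22, against 24.4% and 7.95% of all genes. With 1 sire carrying 4 of the 6 treated pools, the sire and the diet cannot be told apart in these values. The pools of a ram also share their sire and can share a dam, so the p-values measure partly the spread within rams, and with the counts of each ram summed 0 members had an unadjusted p under 0.05, against 3.47% of all genes, and the median was 0.08.

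The count of 2 members at an unadjusted p under 0.05 also changed with single pools. It was 5 without Embryo410_1, 4 without Embryo498_1 and 14 (13 of them higher with methionine) without Embryo511_1, against 7.56%, 8.77% and 11.85% of all genes. It was 1 without Embryo424_3, Embryo424_4 or Embryo444_2, and 0 without Embryo424_1, Embryo424_2 or Embryo444_1, against 5.72 to 7.54% of all genes. With the likelihood-ratio test of edgeR it was 4 (8.82% of all genes) and with DESeq2 5 (8.67%), and 0 members passed an FDR of 0.05 with either, while 5 and 16 of all genes did.

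**Figure D2:**
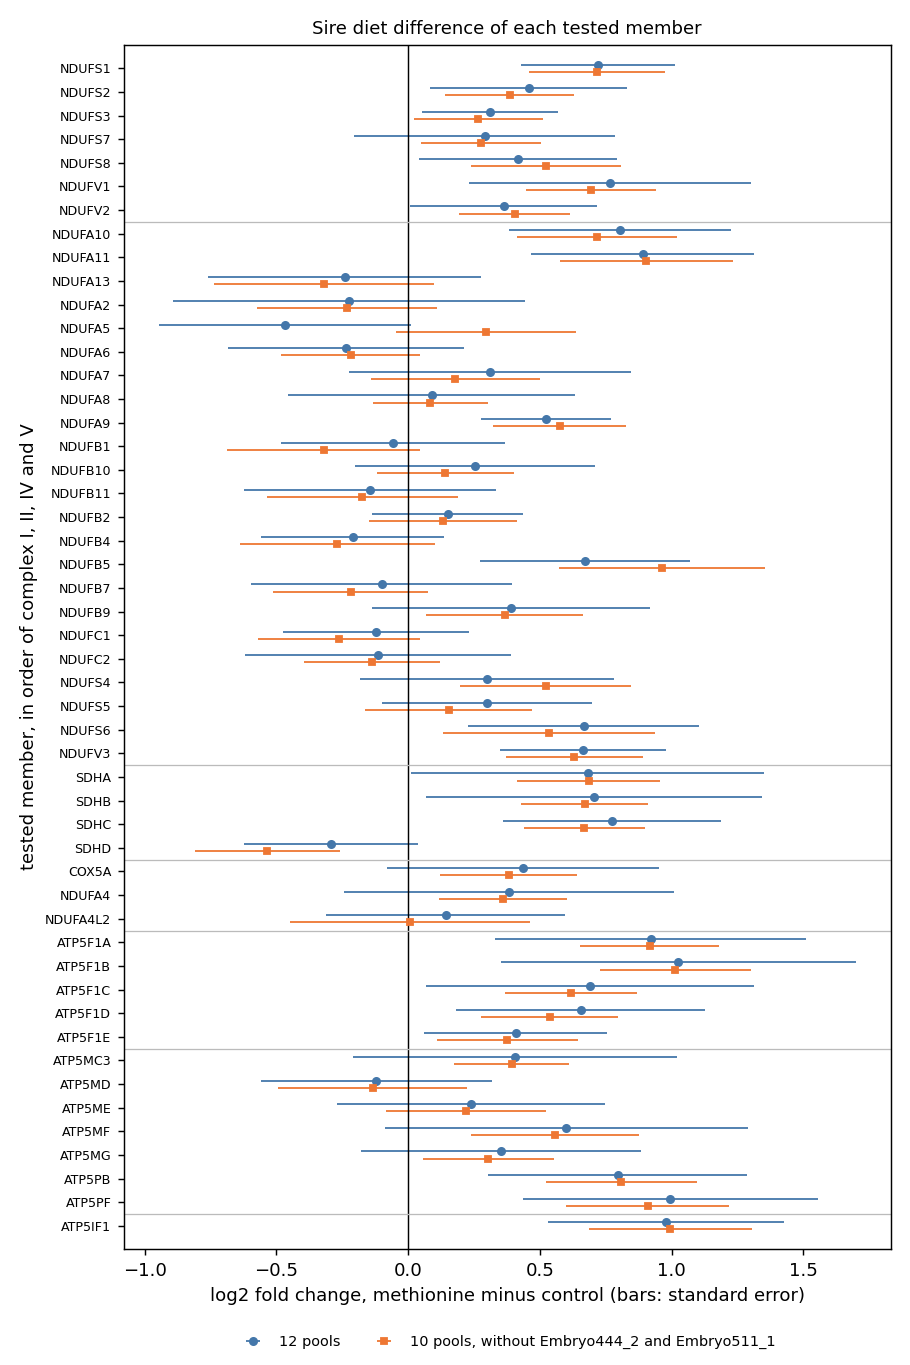
Log2 fold change of methionine over control pools (horizontal axis) with its standard error (bars) for each of the 50 tested members, ordered by complex, in all 12 pools (circles) and in the 10 pools without Embryo444_2 and Embryo511_1 (squares). Most points lie right of 0 (38 of 50 with 12 pools), and no member passed an FDR of 0.05 in either fit.

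The core of complex I carries the electrons from NADH to ubiquinone, and all 7 of its nuclear subunits were tested. Their log2 fold changes were all above 0 (0.29 to 0.77, median 0.42), while 8325 of all 16488 genes were above 0. Over the core and accessory subunits together, 23 of 30 were below 0 without Ram424, which includes the low level of Embryo511_1. The median was then -0.34, against -0.04 over all genes. With the pools of a ram summed, 17 of these 30 were above 0, with a median of 0.03, the same as over all genes. Of the 7 core subunits, 1 had an unadjusted p under 0.05, against 7.92% of all genes. This was NDUFS1, the largest of the core subunits and a carrier of iron-sulfur clusters next to the site of NADH oxidation. Its level was 48.2 to 109 CPM in control pools with a median of 84.6 CPM and 74.4 to 179 CPM in methionine pools with a median of 127 CPM. The 4 pools of Ram424 had 179, 173, 145 and 110 CPM and lay above the other pools, among which Embryo410_1 with 109 CPM was the nearest. Embryo444_2 (48.8 CPM) and Embryo511_1 (74.4 CPM) were within the range of the 10 other pools. For NDUFS1 the log2 fold change was 0.72 ± 0.29 (SE), with p of 0.0250 and an adjusted p of 0.596 by edgeR, and it was 0.00 without Ram424.

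NDUFV1, which binds NADH and the flavin that takes up its electrons, varied far more. It had 31.9 to 48.9 CPM in the control pools other than Embryo444_2, where it had 0.708 CPM, the level of 1 count. In the methionine pools it had 91.3, 88.9, 77.6 and 54.6 CPM for Ram424, 41.5 CPM for Ram498 and 14.9 CPM for Ram511. The log2 fold change of 0.77 ± 0.53 (SE) had an adjusted p of 0.738 by edgeR with 12 pools and 0.316 with 10. NDUFS3, a core subunit of the arm that hands electrons to ubiquinone, was among the 3 members with the narrowest range over the 12 pools (2.97-fold). It had 30.7 to 70.7 CPM in control and 52.5 to 91.3 CPM in methionine pools, and both Embryo444_2 (36.1 CPM) and Embryo511_1 (52.5 CPM) were within the range of the others. NDUFS7, which holds the last cluster before ubiquinone, was low in both, with 5.66 and 5.95 CPM against 35.4 to 80.2 CPM. NDUFS3 was named for its narrow range, which made levels within range likely in advance. Of the 7 core subunits, 4 in Embryo444_2 and 5 in Embryo511_1 were below each of the 10 pools, against 24.6% and 26.6% of all tested genes. Subunits of the same core therefore differed in whether they were low in the pools that stood apart.

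Around this core lie the accessory subunits, which are needed for assembly and stability, and 23 of the 24 were tested. In the 12 pools, 13 had a log2 fold change above 0 and 10 below 0, with a median of 0.15, while 8325 of all 16488 genes were above 0. An unadjusted p under 0.05 was found for 0 of the 23, against 7.92% of all genes. NDUFA8, an accessory subunit on the side of the intermembrane space, had 144 to 282 CPM in the 10 pools, with a coefficient of variation of 20.03%, the lowest of the tested members. It had 22.6 CPM in Embryo444_2 and 16.8 CPM in Embryo511_1, so that an even level in the 10 pools was joined to a low level in both others. NDUFA2, an accessory subunit of the arm that binds NADH, had 99.96 to 402 CPM in the 10 pools, with its highest level in Embryo423_1, and 9.20 and 4.96 CPM in the others. NDUFA7, of the matrix arm, was among the 3 members with the widest range (88.3-fold), with 1.42 CPM in Embryo444_2, 32.7 CPM in Embryo511_1 and 39.9 to 125 CPM in the 10 pools. The control pool Embryo423_1 was highest of the 12 pools for 10 of the 50 members and for 8.6% of all genes.

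Of the 23 tested accessory subunits, 17 in Embryo444_2 and 13 in Embryo511_1 were below each of the 10 pools, against 24.6% and 26.6% of all tested genes. NDUFA9 and NDUFB4 were within range in both, but they were named for a narrow range over the 12 pools, which made this likely in advance. NDUFA9, which sits where the matrix arm meets the membrane, had the narrowest range of the tested members over the 12 pools (2.62-fold). It had 66.5 CPM in Embryo444_2 and 75.4 CPM in Embryo511_1, within the 44.0 to 115 CPM of the others. All 4 pools of Ram424 (115, 97.9, 91.1 and 110 CPM) lay above the highest of the other 6 of the 10 pools (81.5 CPM). Its log2 fold change was 0.52 ± 0.25 (SE), with p of 0.0510 and an adjusted p of 0.631 by edgeR. NDUFB4, a subunit of the membrane arm with few counts (9 to 31 per pool), had 6.77 to 19.9 CPM in the 10 pools and 10.6 and 10.9 CPM in the others. NDUFA5, of the matrix arm, was chosen after its values were seen, as it was higher in Embryo444_2 (72.2 CPM, 102 counts) than in each of the 10 pools (9.64 to 33.9 CPM) and lower in Embryo511_1 (5.95 CPM, 6 counts). NDUFA5 thus moved in opposite directions in the 2 pools.

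Complex II links the tricarboxylic acid cycle to the respiratory chain, and its subunits are all encoded in the nucleus. SDHA, the flavoprotein that oxidises succinate, had 61.6 CPM at the lowest, 578 CPM at the median and 1048 CPM at the highest in control pools, and 40.6, 1105 and 1261 CPM in methionine pools. Here the pool of Ram498 (1100 CPM) was as high as those of Ram424 (1261, 1157, 1111 and 717 CPM), and the control pool Embryo410_1 reached 1048 CPM. The log2 fold change was 0.68 ± 0.67 (SE) with an adjusted p of 0.807 by edgeR, and with the ram as a random effect in limma it was -0.18. SDHB, the iron-sulfur subunit, had 7.08, 269 and 326 CPM in control pools and 43.6, 379 and 606 CPM in methionine pools. All pools of Ram424 (606, 605, 424.2 and 333 CPM) lay above the other pools, and Embryo498_1 (290 CPM) lay among the controls. Its log2 fold change was 0.71 ± 0.64 (SE) with an adjusted p of 0.793 by edgeR, and without Ram424 it was -0.48.

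The remaining subunits of complex II anchor it in the membrane and bind ubiquinone, and they differed from each other. SDHC had 21.2, 163 and 205 CPM (lowest, median and highest) in control pools and 124, 277 and 298 CPM in methionine pools. It was higher in the pools of Ram424 (297, 261, 298 and 292 CPM) than elsewhere, and low in Embryo444_2 but within the range of the others in Embryo511_1. Its log2 fold change was 0.77 ± 0.41 (SE), with an adjusted p of 0.662 by edgeR with 12 pools and 0.307 with 10. SDHD had 23.6, 35.4 and 62.5 CPM in control pools and 21.7, 27.4 and 68.4 CPM in methionine pools. Its highest levels were in Embryo511_1 (68.4 CPM), Embryo444_1 (62.5 CPM) and Embryo444_2 (53.1 CPM), and the other 9 pools had 21.7 to 36.1 CPM, so that SDHD was high where SDHA and SDHB were at their lowest. Its log2 fold change was -0.29 ± 0.33 (SE) with an adjusted p of 0.834 by edgeR, and it was -0.62 without Embryo511_1, 0.16 without Ram424 and 0.06 without Ram444.

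Complex IV transfers the electrons to oxygen. COX5A, a subunit on its matrix side, had 7.79 CPM at the lowest, 103 CPM at the median and 209 CPM at the highest in control pools, and 31.7, 157 and 210 CPM in methionine pools. The control pool Embryo423_1 (209 CPM) equalled the highest pool of Ram424 (210 CPM), and the lowest levels were in Embryo444_2 and Embryo511_1. Between diets its log2 fold change was 0.44 ± 0.52 (SE), with an adjusted p of 0.842 by edgeR. NDUFA4 had 4.25, 133 and 185 CPM in control pools and 9.91, 168 and 252 CPM in methionine pools. With methionine its log2 fold change of 0.38 ± 0.63 (SE) had an adjusted p of 0.892 by edgeR. NDUFA4L2, known to be induced by low oxygen, had 3.55 to 12.8 CPM in the 10 pools (5 to 26 counts) and its highest levels, 13.4 and 19.8 CPM (19 and 20 counts), in Embryo444_2 and Embryo511_1. NDUFA4 and NDUFA4L2 were thus at opposite ends of their ranges in these pools, although the counts of NDUFA4L2 were few.

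**Figure D3:**
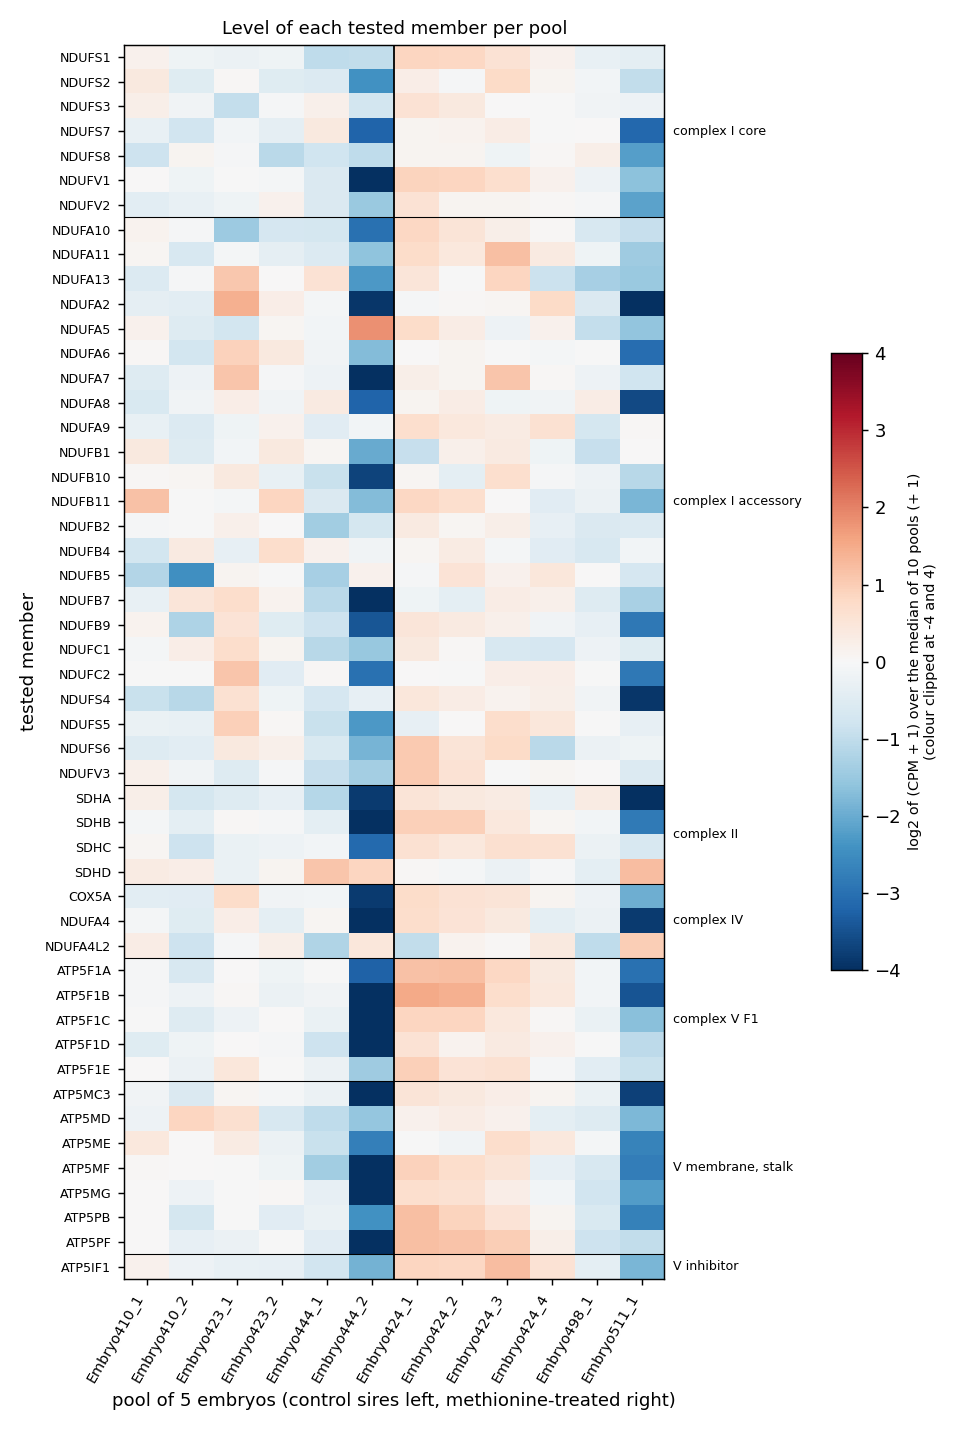
Level of each of the 50 tested members (vertical axis, grouped by complex) in each of the 12 pools (columns, control sires left of the line), as log2 of its CPM + 1 over the median of the 10 pools + 1, with the colour clipped at 4 in each direction. Most members are blue in Embryo444_2 and Embryo511_1, with exceptions such as NDUFA5, NDUFA9 and SDHD, and most members of complex V are red in Embryo424_1 and Embryo424_2.

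Complex V had the largest share of members that were higher in every pool of Ram424. Its catalytic head is formed by ATP5F1A and ATP5F1B, the alpha and beta subunits, with ATP5F1C as the shaft that turns inside them. ATP5F1B had 391 to 472 CPM in the 5 control pools other than Embryo444_2 and 425 CPM in Embryo498_1, and 1317, 1246, 748 and 618 CPM in the pools of Ram424. The pools of Ram424 were therefore separate from the other 6 of the 10, which varied little among themselves, and Embryo444_2 and Embryo511_1 had 26.2 and 41.6 CPM. The log2 fold change was 1.03 ± 0.67 (SE) with an adjusted p of 0.719 by edgeR, 1.01 ± 0.29 with an adjusted p of 0.258 in the 10 pools, and -0.61 without Ram424, where the treated pools were Embryo498_1, level with the controls, and Embryo511_1. ATP5F1A had 256 to 401 CPM in the same control pools, 365 CPM in Embryo498_1 and 898, 917, 708 and 514 CPM for Ram424, with a log2 fold change of 0.92 ± 0.59 (SE) and an adjusted p of 0.714 by edgeR. ATP5F1C had 14.2, 512 and 612 CPM (lowest, median and highest) in control pools and 187, 712 and 1094 CPM in methionine pools. In Embryo511_1 ATP5F1C had 31.2% of the median of the 10 pools, while ATP5F1B had 9.03%, so that subunits of the head differed there. For ATP5F1C the log2 fold change was 0.69 ± 0.62 (SE) with an adjusted p of 0.793 by edgeR.

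The part of complex V in the membrane holds the ring of c subunits, which protons turn, and a peripheral stalk that keeps the head from turning with it. ATP5MC3, a gene for the c subunit, had 299 to 477 CPM in the control pools other than Embryo444_2, 374 CPM in Embryo498_1 and 650, 588, 545 and 487 CPM for Ram424. With methionine its log2 fold change of 0.41 ± 0.61 (SE) had an adjusted p of 0.879 by edgeR and was -0.25 with the ram as a random effect. ATP5PF, of the peripheral stalk, had 10.6, 206 and 256 CPM (lowest, median and highest) in control pools and 127, 400 and 584 CPM in methionine pools, with 584, 561, 504 and 295 CPM for Ram424. For ATP5PF the log2 fold change was 0.996 ± 0.561 (SE) with an adjusted p of 0.671 by edgeR. ATP5MF, a small subunit of the membrane part, had the widest range of the tested members over the 12 pools (198-fold), from 2.83 CPM in Embryo444_2 (4 counts) to 562 CPM in Embryo424_1. It had 42.6 CPM in Embryo511_1 and 113 to 562 CPM in the 10 pools, with Embryo444_1 the lowest of them.

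ATP5IF1 inhibits complex V when it would otherwise split ATP. It had 5.66 CPM at the lowest, 19.0 CPM at the median and 27.1 CPM at the highest in control pools, and 5.95, 39.5 and 57.9 CPM in methionine pools. The pools of Ram424 had 44.4, 43.0, 57.9 and 35.9 CPM and lay above all others, while Embryo498_1 had 18.1 CPM and lay among the controls. Its log2 fold change was 0.98 ± 0.45 (SE), with p of 0.0431 and an adjusted p of 0.617 by edgeR, and without Ram424 it was -0.49. The inhibitor and the head of complex V thus had their highest levels in pools of the same sire. Over complex V, the summed level was 2835, 2256, 2859, 2686, 2318 and 182 CPM in control pools Embryo410_1, Embryo410_2, Embryo423_1, Embryo423_2, Embryo444_1 and Embryo444_2. It was 5881, 5561, 4350 and 3220 CPM in the pools of Ram424, 2294 CPM in Embryo498_1 and 584 CPM in Embryo511_1.

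Genes that assemble these subunits had sums nearer to those of the 10 pools. The assembly factors of the complexes (30 of 53 analysed) summed to 743 CPM in Embryo444_2 and 1014 CPM in Embryo511_1 against 941 to 1397 CPM in the 10 pools, led by ATPAF2 with 53.0 to 138 CPM in the 10. The 2 pools had 19.8 and 112 CPM of ATPAF2. In each of them 16 of 29 tested factors were below the 10 pools, against 24.6% and 26.6% of all genes, and 3 and 4 were above, against 22% and 24.9%. Of 29 tested, 4 had an unadjusted p under 0.05, all higher with methionine (3.55% of all genes were) and with an adjusted p of 0.584 or more by edgeR, and with the pools of a ram summed 1 was, against 320 of 16488 genes. ECSIT and NDUFAF5, needed to assemble complex I, had log2 fold changes of 1.14 ± 0.36 and 0.86 ± 0.29 (SE). Both were high in Embryo498_1 (64.4 and 31.9 CPM) as well as in the pools of Ram424 (51.5 to 60.5 and 20.9 to 26.3 CPM). They were not high in Embryo511_1, the pool of the third treated ram. There NDUFAF5 had 17.8 CPM, against 9.78 to 18.4 CPM for control sires. ECSIT had 13.9 CPM there, which was above Embryo444_2 (9.20 CPM) only. ATPAF1, needed to assemble the head of complex V, had 146, 144, 81.2 and 104 CPM for Ram424 and 69.2 and 93.2 CPM in Embryo498_1 and Embryo511_1. TIMMDC1, also needed for complex I, had 185 CPM in Embryo511_1 against 20.6 to 54.9 CPM in the 10 pools, so that its difference came from this pool, where it also added to the sum of the list. Among related subunits outside the rule, NDUFAB1 (11.9 to 58.8 CPM) and DMAC2L (7.86 to 38.7 CPM) had adjusted p of 0.977 and 0.782 by edgeR.

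The tricarboxylic acid cycle and pyruvate dehydrogenase, which supply NADH and succinate, were nearer to the subunits. Their genes (16 of 17 analysed) summed to 502 CPM in Embryo444_2 and 1451 CPM in Embryo511_1 against 2281 to 4526 CPM, led by the citrate synthase gene CS with 51.7 and 84.3 CPM against 500.0 to 1529 CPM. Of 16 tested, 3 had an unadjusted p under 0.05, namely DLAT, DLD and IDH3B, all higher with methionine with log2 fold changes of 0.60, 0.68 and 0.86 and adjusted p of 0.587, 0.616 and 0.585 by edgeR, against 3.55% of all genes, and with the pools of a ram summed 1 of 16 was, against 320 of 16488 genes. The median log2 fold change was 0.46 in this list, 0.12 in the assembly factors and 0.39 in the subunits.

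Regulators of mitochondrial biogenesis, which control the transcription of many subunit genes and the copying of mitochondrial DNA, had a median near 0 between diets. The list (20 of 20) summed to 1227 CPM in Embryo444_2 and 1290 CPM in Embryo511_1 against 1482 to 2324 CPM, led by the coactivator PPARGC1B with 63.7 and 268 CPM against 248 to 456 CPM, so that both sums were below the 10 pools. The median log2 fold change was 0.03, and 1 of 20 had an unadjusted p under 0.05, against 7.92% of all genes. This was NRF1, a transcription factor of nuclear genes for the respiratory chain, with a log2 fold change of -0.52 ± 0.24 (SE) and an adjusted p of 0.620 by edgeR. With the pools of a ram summed, 0 of 20 had an unadjusted p under 0.05, against 3.47% of all genes. NRF1 had 66.4, 54.4, 70.6 and 132 CPM in the pools of Ram424 and 78.9 to 136 CPM in the other 6 of the 10 pools, so that its lowest levels were in pools where the subunit genes were high. The mitochondrially encoded subunits (13 genes) were not analysed here.

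The spread of the subunit genes was near that of other genes by the coefficient of variation over the 10 pools. It was wider than that of all genes by the value that edgeR estimated within diets over the 12 pools. These measures are unlike, since only the first includes counting noise and diet differences, so they do not compare the 10 pools with the 12. The coefficient of variation over the 10 pools had a median of 36.5% for the tested members, 31.7% for ribosomal protein genes, 32.8% for proteasome subunits and 33.6% for all tested genes. The biological coefficient of variation that edgeR estimated within diets in the 12 pools had a median of 0.551 for the members, 0.621 for the ribosomal, 0.429 for the proteasome and 0.408 for all genes. Ribosomal and proteasome genes also had median log2 fold changes above 0 (0.31 and 0.40), with 1 of 72 and 5 of 36 higher at an unadjusted p under 0.05, against 3.55% of all genes, and 0 and 1 with the pools of a ram summed, against 320 of 16488 genes. Of them, 3 of 72 and 5 of 36 were higher in all 4 pools of Ram424 than in each of the other 6, against 2.43% of all genes. Whether the subunits of oxidative phosphorylation differed from these sets was not tested.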

How the data were processed

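The gene counts were deposited as whole, unnormalised reads per gene and pool. Per the labels and the methods of the study, the authors amplified RNA from each pool with a whole transcriptome kit, trimmed single-end reads and counted them per gene with STAR on Oar_rambouillet_v1.0. The strand setting was not stated and molecules were not tagged, so that reads from overlapping genes, pseudogene copies or amplification could not be separated. The members and gene lists were chosen with earlier results of these data known. A gene was kept if more than 3 pools had 15 counts or more of it. Kept genes were normalized by TMM and compared by diet alone in edgeR (4.0.16, under R 4.3.3) by its two-sided quasi-likelihood test, with Benjamini-Hochberg adjustment over all tested genes. The procedure was also run on simulated data, the outcome of which is not given here. Alternatives used the likelihood-ratio test, DESeq2 1.42.0, RLE size factors, other filters, counts summed per ram, limma 3.58.1 with a random effect of ram, and leaving out each pool or ram. The alternatives without Embryo444_2 and Embryo511_1, without Ram424 in the summed level, and with Embryo424_1 and Embryo424_2 summed were chosen after seeing the data. Tables were made in Python 3.11.15 (pandas 2.3.3, numpy 2.4.6, scipy 1.17.1) and figures with matplotlib 3.10.9.

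Members named were, for each complex, the 2 with the highest and the 1 with the lowest mean CPM, those with an unadjusted p under 0.05, those with tissue isoforms, the 3 with the widest and the 3 with the narrowest range, and those failing the filter; of other lists, the most abundant gene and those with an unadjusted p under 0.05. The rule called for levels per length, but lengths were not used here. Other members were named after their values were seen. The closest replicate pair, Embryo424_1 and Embryo424_2 (Spearman 0.955), had a chi-square per degree of freedom of 3.62, against 9.47 to 31.5 for other pairs of a ram. Amplified reads are not independent, so these values cannot show whether the pair were separate embryos. Each was counted as a pool, as labelled, and the result with the pair summed is given. The sperm methylation counts were not used here, since the gene table at hand is of another genome build (ARS-UI_Ramb_v3.0); of the members, 50 had a symbol or synonym in it.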

Additional observations from a re-analysis of the deposited data

Results flagged for a closer look

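Within the 6 pools of each diet, the gap between an extreme pool and its neighbour was compared with the range of the group, and it exceeded 0.625 of the range in 8 of the 46 groups examined. Chance gives about 1 in 20 groups only for normally distributed values in groups that were not selected. The groups are not independent, since the same pools enter each. NDUFV1, among the 8, was itself named for its wide range over these pools, so that the count cannot be compared with that rate. In the control group Embryo444_2 was low for the summed level of all members (gap 0.673 of the range, 927 CPM against 5011 to 6993 CPM) and for that of complex V (0.775, 182 CPM against 2256 to 2859 CPM). The same pool was low for ATP5F1B (0.819, 26.2 CPM against 391 to 472 CPM), ATP5F1C (0.681, 14.2 CPM against 421 to 612 CPM), SDHB (0.722, 7.08 CPM against 238 to 326 CPM) and NDUFV1 (0.648, 0.708 CPM against 31.9 to 48.9 CPM). In the methionine group Embryo511_1 was low for NDUFA8 (0.701, 16.8 CPM against 194 to 270 CPM) and high for SDHD (0.83, 68.4 CPM against 21.7 to 29.6 CPM). These are the pools with the lowest summed trophectoderm markers, and the part of the markers in these values was not tested.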

How the results depend on the processing

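Under each alternative run, 0 members passed an FDR of 0.05, with the lowest adjusted p of a member between 0.258 and 1.0. The count at an unadjusted p under 0.05, which was 2, became 4 with the likelihood-ratio test (8.82% of all genes), 5 with DESeq2 (8.67%) and with RLE normalization (7.96%), 6 of 52 without a filter (7.90%), 1 of the 19 members left with at least 15 counts in all pools (7.93%), and 0 with the pools of a ram summed (3.47%), with the ram as a random effect (2.15%), and with Embryo424_1 and Embryo424_2 summed (5.84%). It was 16 without Embryo444_2 and Embryo511_1, and 0 when the pools of a ram were summed as well (4.60%). Leaving out each pool or ram in turn gave 0 to 14 members. The median log2 fold change of 0.39 ranged from -0.38 (without Ram424) to 0.66 when pools or rams were left out, and the log2 ratio of the summed level from 0.35 to 0.77 over single pools. That ratio was -0.43 without the 4 pools of Ram424, which leaves Embryo498_1 and the low Embryo511_1 as treated pools, and 0.15 as a mean of ram means. The causes were not tested.

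Leaving out pools or rams gave log2 fold changes of -0.55 to 1.16 for ATP5F1A, -0.61 to 1.27 for ATP5F1B, -0.36 to 0.92 for ATP5F1C, -0.49 to 1.26 for ATP5IF1, -0.72 to 0.68 for ATP5MC3, -0.45 to 1.198 for ATP5PF, -0.57 to 0.90 for COX5A, -0.76 to 0.63 for NDUFA4, -0.056 to 0.66 for NDUFA9, -0.33 to 1.004 for NDUFV1, -0.48 to 0.98 for SDHB and -0.62 to 0.16 for SDHD, where for each of these except SDHD the value below 0 is that without Ram424. SDHD had 0.16 without Ram424 and 0.06 without Ram444. For NDUFS1, SDHA and SDHC all values were above 0. With the pools of a ram summed, NDUFA4 had -0.039 and ATP5MC3 -0.015. With the ram as a random effect, SDHA had -0.18 and ATP5MC3 -0.25. Depth limits members with few counts, such as NDUFB4 and NDUFA4L2. No paired analysis was possible because the pool numbers count pools within a ram. The planned comparison of promoter methylation in sperm, with its alternatives, was not run, because no gene positions of the build of the files were used here.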
